A study of Mus musculus with 6 samples.

Results

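The core of the cGAS-STING pathway was examined in MC38 cells as 6 genes picked by name: Cgas, Sting1, Tbk1, Ikbke, Irf3 and Trex1. Of these, 5 had a row among the 24181 genes of the count table, and Trex1 was not analysed here. MC38 is a mouse colon adenocarcinoma cell line, grown in culture in DMEM. The labels list 6 samples, 3 of parental MC38 cells with the genotype WT and 3 of MC38 cells expressing STING-N153S, and name no other treatment, age or agent. STING-N153S is a single amino acid exchange in STING. The series was made to set these groups against each other. Columns could be tied by name only to the 3 parental samples, so the values below describe parental cells and hold no difference between the groups.

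In this pathway the enzyme cGAS binds double-stranded DNA in the cytosol and makes the cyclic dinucleotide cGAMP. STING, a membrane protein of the endoplasmic reticulum, binds cGAMP, moves to the Golgi and recruits the kinase TBK1, which phosphorylates STING and the transcription factor IRF3. IRF3 then enters the nucleus and switches on interferon-beta and other genes. IKKe, the product of Ikbke, is a kinase related to TBK1, and TREX1 is an exonuclease that removes cytosolic DNA. Many tumour lines lower or lose cGAS or STING, and MC38 is widely used to study immune responses to tumours.

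RNA was counted by 3'-end sequencing, in which oligo-dT primes each transcript once, so counts were compared between genes without a correction for length. Other differences between genes, in how their 3' ends are annotated, captured or assigned, were neither measured nor corrected. In GENCODE M21 the coding transcripts of Sting1, Cgas, Ikbke and Irf3 have 2 annotated 3' ends each, and Tbk1 has 1. Ratios between genes are therefore ratios of counts and may differ from ratios of RNA molecules. Counts were scaled by the total of their library to CPM. The 3 parental libraries held 3210024 to 4020023 counts, and 1 count equals 0.249 to 0.312 CPM. Intervals are exact Poisson or Clopper-Pearson intervals at 95% and cover counting error only. They and the chi-square test below take each count as a separate molecule. Whether copies of 1 molecule were collapsed is not given. If they were not, the intervals are too narrow and the p-values too small. Bulk RNA cannot tell fewer cells that express a gene from less RNA per cell. Marker genes were counted as a check of the cell type. All 5 mesenchymal markers were at 25.9 CPM or more. Of 11 intestinal epithelial markers listed, 6 were not analysed here, and of the other 5, 0 reached 1 CPM: Krt8, Krt19 and Vil1 had 1 count each over the 3 libraries, and Cdx1 and Lgr5 had 0. These 5 markers thus gave no sign of the labelled origin in colon epithelium. None of the 4 leukocyte markers analysed of 8 listed and none of 4 endothelial markers reached 1 CPM. Csf1r and Lyz2 had 0 counts, below the floor of 3 counts over the 3 libraries, or 0.283 CPM. The exact interval of their pooled level reached 0.348 CPM. The summed level of the leukocyte list was 0.893 to 1.24 CPM.

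Cgas, Irf3 and Tbk1 stood at nearly the same level in parental cells, at a mean of 23.1 to 24.1 CPM. Sting1 lay near 12.3 CPM and Ikbke near 1 CPM. Of the 5 genes, 4 averaged 10 CPM or more, a level reached by 31.2% of all genes in the table. It was reached by 47.4% of the 12664 genes with a RefSeq promoter window, described below. The 5 genes together held 282, 346 and 267 counts in replicates 1 to 3. Their summed level was 84.4 ± 1.5 CPM (SD, n = 3). Of that sum of counts, Cgas took 28.6% ± 2.87, Irf3 28.3% ± 3.02, Tbk1 27.4% ± 0.91, Sting1 14.6% ± 2.63 and Ikbke 1.16% ± 0.51 (SD, n = 3).

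**Figure D1:**
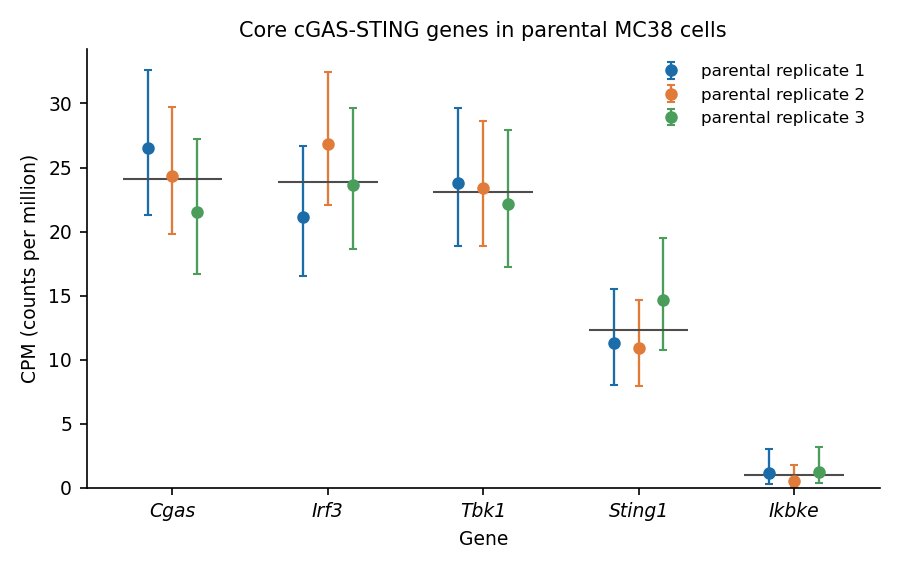
CPM of each gene in the 3 parental libraries, with points for single libraries, bars for the exact 95% Poisson interval of each count and a horizontal line for the mean. The points of Cgas, Irf3 and Tbk1 lie between 21.1 and 26.9 CPM, those of Sting1 between 10.9 and 14.6 CPM, and those of Ikbke between 0.498 and 1.25 CPM.

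Cgas (chromosome 9, 78430526 to 78443237, minus strand, GRCm38, GENCODE M21) encodes the DNA sensor at the top of the pathway. It had 89, 98 and 69 counts in replicates 1, 2 and 3, which are 26.5, 24.4 and 21.5 CPM. Replicate 1 was highest and replicate 3 lowest, and the exact intervals of all 3 overlapped, from 16.7 CPM at the lowest bound to 32.6 CPM at the highest. Cgas stood at rank 5326 of the genes by mean level, above 78.0% of them. The annotated last exon is 2742 bases long, and the pseudogene Gm8093 on the opposite strand shares 201 bases with it. Gm8093 had 0, 1 and 0 counts.

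Sting1 (chromosome 18, 35733679 to 35740554, minus strand, GRCm38, listed as Tmem173 in GENCODE M21) encodes the adaptor that the series alters. Replicates 1 to 3 held 38, 44 and 47 counts of it, which are 11.3, 10.9 and 14.6 CPM. Replicate 3 was the highest, and its interval of 10.8 to 19.5 CPM included the values of both other libraries. Over the 3 libraries together the level was 12.2 CPM, with an exact Poisson interval of 10.2 to 14.5 CPM. Sting1 stood above 70.7% of all genes in the table. In the annotated transcript of 2299 bases the codon for the asparagine that N153S replaces lies in exon 5 of 8, and 1502 bases separate it from the 3' end. The counts are of 3'-end fragments, so they carry no readout of that codon.

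Of the kinases, Tbk1 (chromosome 10, 121546455 to 121586787, minus strand, GRCm38) was counted 80, 94 and 71 times, at 23.8, 23.4 and 22.1 CPM. These values differed least between libraries among the members, with a highest-to-lowest ratio of 1.08. Ikbke (chromosome 1, 131254343 to 131279606, minus strand, GRCm38) was counted 4, 2 and 4 times, at 1.19, 0.498 and 1.25 CPM. With so few counts the exact interval of the pooled level ran from 0.453 to 1.74 CPM. Ikbke was at rank 12003, above 50.3% of all genes in the table, and it was the only one of the 5 members with a mean under 1 CPM. That mean was 0.978 CPM, and replicates 1 and 3 were above 1 CPM, so its side of 1 CPM is not resolved. Tbk1 was higher than Ikbke in 3 of 3 libraries, by 20, 47.0 and 17.8 times. The pooled ratio was 24.5, with an exact interval of 13.1 to 51.7.

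Irf3 (chromosome 7, 44997648 to 45002848, plus strand, GRCm38) encodes the transcription factor that TBK1 phosphorylates. Its 71, 108 and 76 counts gave 21.1, 26.9 and 23.7 CPM, highest in replicate 2 and lowest in replicate 1. The intervals of all 3 libraries overlapped, and Irf3 stood above 77.8% of all genes. Bcl2l12, on the opposite strand, overlaps the 5' part of Irf3 and shares 8 exon bases with the coding transcripts of Irf3 but 0 bases of its last exon. Bcl2l12 had 19.1, 14.2 and 11.8 CPM, lowest where Irf3 was intermediate. On the other side Scaf1 lies 100 bases beyond the 3' end of Irf3 on the opposite strand, at 13.7, 10.9 and 7.48 CPM. No source used here says whether counting used strand, so reads that run past either gene's end cannot be told apart.

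Trex1 was not analysed here, but its place in the genome bears on a gene that was. In GENCODE M21 on GRCm38 the whole of Trex1 (chromosome 9, 109057933 to 109059734, minus strand) overlaps Atrip on the same strand. All 996 bases of the last exon of Trex1 are also annotated as exon of Atrip, whose product guides the ATR kinase to damaged DNA. A 3'-end fragment from that stretch fits both genes. Atrip stood at 28.3, 22.9 and 29.6 CPM, from 95, 92 and 95 counts, and averaged 26.9 ± 3.56 CPM (SD, n = 3). Replicate 2 was lowest. How the authors' counting, which used the later annotation M25, treated such reads is not given, so the value of Atrip may hold reads of either gene.

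**Figure D2:**
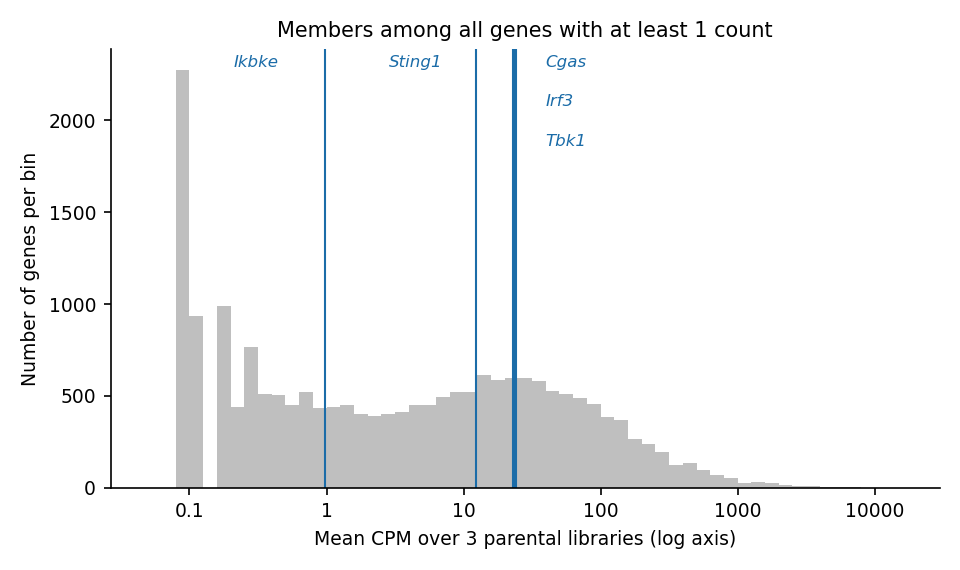
Number of genes by mean CPM over the 3 parental libraries, on a log axis, for all genes with at least 1 count, with vertical lines at the members. Cgas, Irf3 and Tbk1 fall together near 24 CPM in the broad upper group of genes, Sting1 lies at 12.3 CPM and Ikbke at 0.978 CPM, in the trough between that group and the genes with few counts.

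Promoter sequences are shown for the sensor gene and for the pair of related kinase genes whose levels lay far apart. Windows were from RefSeq on GRCm38.p6, and 4 of the 5 members analysed had one: Cgas, Tbk1, Ikbke and Irf3. Each run below is written 5' to 3' on the gene's strand and has every CpG in capitals. The runs of Cgas and Tbk1 end at the base before the RefSeq start. The Ikbke run is 207 bases long and ends at the base before the GENCODE M21 start, which lies upstream of the RefSeq one. The Irf3 window is not shown because it holds exons of Bcl2l12. The runs cover chr9:78443238-78443487 (Cgas), chr10:121586795-121587044 (Tbk1) and chr1:131279607-131279813 (Ikbke), all on the minus strand.
Cgas: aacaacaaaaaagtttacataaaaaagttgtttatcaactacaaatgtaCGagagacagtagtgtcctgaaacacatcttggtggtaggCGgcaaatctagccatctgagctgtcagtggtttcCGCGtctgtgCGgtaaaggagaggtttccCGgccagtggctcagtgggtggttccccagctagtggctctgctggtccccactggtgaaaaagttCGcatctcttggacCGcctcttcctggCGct
Tbk1: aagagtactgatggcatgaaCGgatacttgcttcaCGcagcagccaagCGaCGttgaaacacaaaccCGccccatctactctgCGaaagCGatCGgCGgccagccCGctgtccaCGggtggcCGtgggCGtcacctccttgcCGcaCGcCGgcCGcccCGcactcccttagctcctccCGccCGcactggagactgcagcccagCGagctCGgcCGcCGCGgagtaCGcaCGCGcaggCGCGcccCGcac
Ikbke: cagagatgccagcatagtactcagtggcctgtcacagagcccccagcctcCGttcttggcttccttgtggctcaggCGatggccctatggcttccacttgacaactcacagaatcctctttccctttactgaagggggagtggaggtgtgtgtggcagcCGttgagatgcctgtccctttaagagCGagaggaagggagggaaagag
The run of Tbk1 held 31 CpG and was 68.4% G or C. That of Cgas, of the same 250 bases, held 9 CpG at 50.0% G or C. The shorter run of Ikbke held 4 CpG at 56.0% G or C.

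In the full RefSeq windows of 300 bases, from 250 before to 50 after the start, Tbk1 had 37 CpG, Irf3 18, Cgas 16 and Ikbke 4. Of 32851 such windows, 94.4% had fewer CpG than Tbk1, 70.3% fewer than Irf3, 67.0% fewer than Cgas and 31.4% fewer than Ikbke. Of 1832 genes in the count table with at most as many CpG as Ikbke, 23.8% reached a mean of 1 CPM. Among 7467 genes with at least as many as Cgas this share was 84.1%. Of all 12664 genes with a window, 68.0% reached 1 CPM. Tbk1 and Cgas, with 37 and 16 CpG, stood at nearly the same level. Whether CpG content bears on the level of Ikbke or of any other member was not tested. Both strands of the windows were also searched for short motifs. The interferon-response core, GAAA, then 2 bases of any kind, then GAAA, was found in 0 of the 4 windows and in 3.44% of all windows. The NF-kB pattern, GGG, then 5 bases of any kind, then CC, occurred in the windows of Cgas, Tbk1 and Irf3, and in 50.8% of all windows. In Cgas its 2 matches overlap on opposite strands. The GC box GGGCGG occurred 3 times in Tbk1 and once in Irf3, against 35.7% of all windows with a match, and the E-box CACGTG once in Tbk1, against 7.15%. TATAAA and CCAAT were found in 0 of the 4 windows, and in 13.6% and 37.4% of all. Apart from the pair in Cgas, no matches in these 4 windows overlapped. A match of letters is no evidence of a bound factor.

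The order of the members was then read from the ratio of counts within each library, which needs no scaling. Of the 10 pairs among the 5 genes, 7 had the same gene higher in 3 of 3 libraries with an exact interval of the pooled ratio above 1. The other 3 were the pairs among Cgas, Irf3 and Tbk1. Cgas and Irf3 had a pooled ratio of 1.00, with an interval of 0.841 to 1.2, and Cgas was the higher in 1 of 3 libraries. Irf3 exceeded Tbk1 in 2 of 3 libraries at a pooled ratio of 1.04, with an interval of 0.87 to 1.25. The order among these 3 genes is therefore not resolved at this depth, and a difference of up to about these bounds would not have been seen.

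Sting1 was lower than each of the 3 in every library. Cgas stood at 2.34, 2.23 and 1.47 times Sting1, with a pooled ratio of 1.98 and an exact interval of 1.6 to 2.47. In replicate 3 alone the interval of Cgas to Sting1, 0.999 to 2.17, included 1. Irf3 stood at 1.87, 2.45 and 1.62 times Sting1, with a pooled ratio of 1.98 and an exact interval of 1.59 to 2.46. Tbk1 stood at 2.11, 2.14 and 1.51 times Sting1, pooled 1.90, with an interval of 1.53 to 2.37. In all these pairs the ratio was smallest in replicate 3, where Sting1 was highest. Sting1 exceeded Ikbke in each library, at a pooled ratio of 12.9 with an interval of 6.79 to 27.5. In the order of means, 2 of the 4 neighbouring pairs, Tbk1 with Sting1 and Sting1 with Ikbke, thus lay apart in counts beyond their spread.

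**Figure D3:**
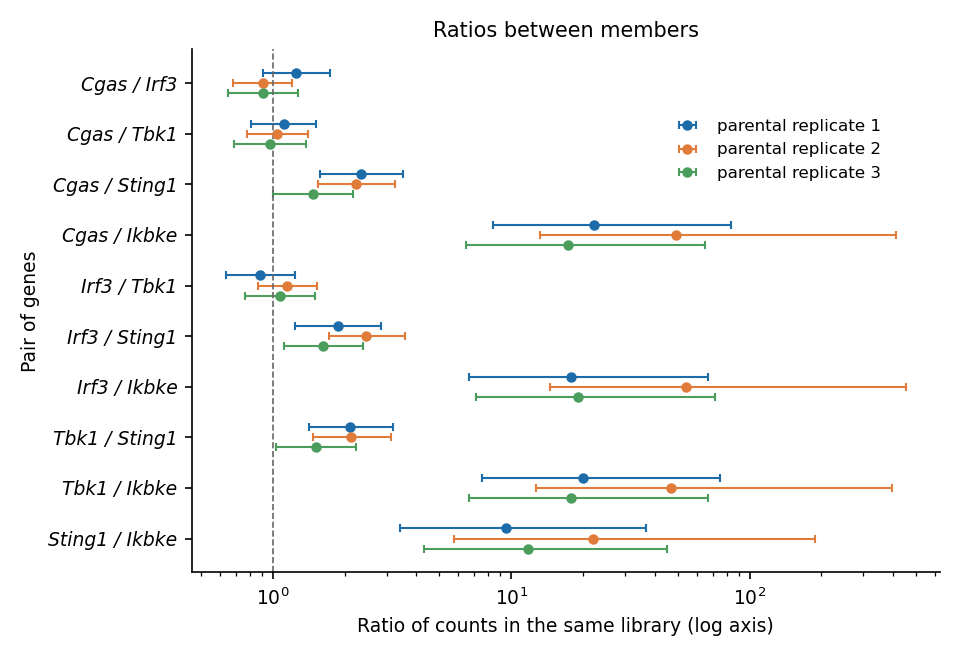
Ratio of the counts of 2 genes in the same library, on a log axis, for all 10 pairs, with bars for the exact 95% interval and a dashed line at 1. The intervals of the pairs among Cgas, Irf3 and Tbk1 include 1 in each library, while the ratios to Ikbke lie between 9.5 and 54.0 with wide intervals.

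The spread of the members between the parental libraries was set against counting noise. Of the 4 members with enough counts for a chi-square test of counts, 0 varied at an adjusted p below 0.05 (Benjamini-Hochberg over all genes tested), and 0 at an unadjusted p below 0.05. Over all 11118 genes tested, 2.8% varied, and 1466 (13.2%) had an unadjusted p below 0.05. Adjusted p was 0.736 for Sting1, 0.742 for Irf3, 0.795 for Cgas and 0.97 for Tbk1. The SD between libraries was 16.6% of the mean for Sting1, where counting alone gives 15.2%. For Irf3 it was 12.0% against 10.9%, and for Cgas 10.4% against 10.9%. Tbk1 had an SD of 3.82% of its mean, below the 11.1% of counting noise. Among 1349 genes tested within 1.3-fold of its level, 9.12% had a smaller relative SD than Tbk1. Ikbke had too few counts for the test. The test compares libraries and not conditions, and a spread near counting noise leaves smaller differences unseen.

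**Figure D4:**
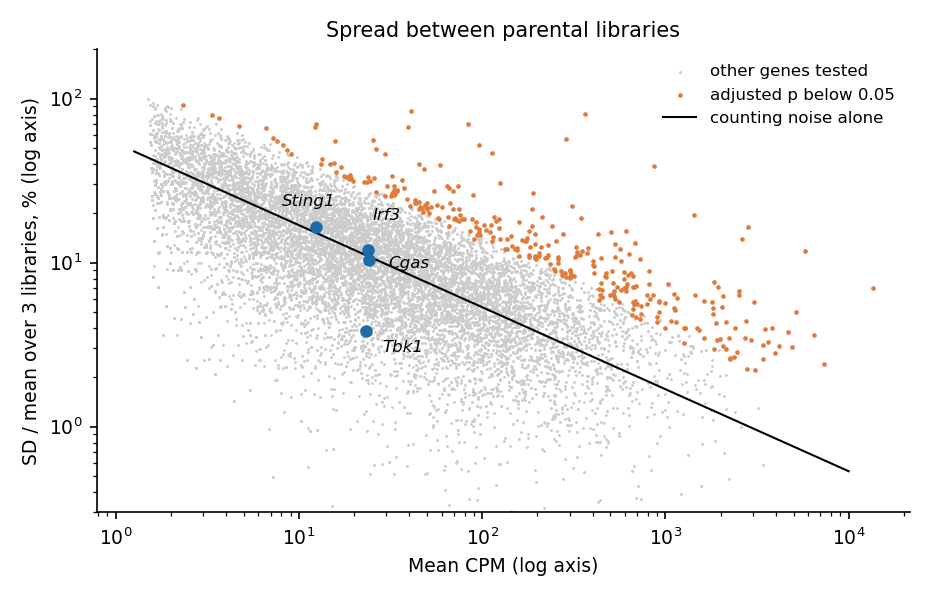
SD as a percentage of the mean over the 3 parental libraries against mean CPM, both on log axes, for the 11118 genes tested, with genes at an adjusted p below 0.05 in orange and the line that counting noise alone gives. Sting1, Irf3 and Cgas lie close to the line and Tbk1 below it. Genes with a spread smaller than the axis shows are not drawn.

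Genes around the core were taken from 6 lists of sensing partners, adaptors, kinases, factors, regulators and targets. Of their 86 genes, 82 were analysed and 52 of these (63.4%) averaged 10 CPM or more, against 31.2% of all genes in the table. Of the 12664 genes with a RefSeq promoter window, 47.4% did, so the gap depends on which genes are compared. The counts of genes at 10 CPM or more in single lists below are to be read beside these shares. A higher level than that of Cgas was found for 39 of the 82, and 49 stood above Sting1.

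Upstream, 13 of 19 DNA sensing partners and nucleases were at 10 CPM or more, and 12 stood above Cgas. The highest were Banf1, a chromatin protein that competes with cGAS for DNA, with 1074 ± 47.2 CPM, the DNA-binding protein Hmgb1 with 925 ± 54.2 CPM and the stress granule protein G3bp1 with 732 ± 26.2 CPM (SD, n = 3). Banf1 had 42.4, 43.8 and 48.0 times the counts of Cgas in replicates 1 to 3. The subunits of RNase H2, which removes ribonucleotides from DNA, were at 84.7 ± 1.08 CPM (Rnaseh2b), 133 ± 1.14 CPM (Rnaseh2a) and 298 ± 3.06 CPM (Rnaseh2c; SD, n = 3). At the low end, Aim2, another cytosolic DNA sensor, had 0 counts, with an exact pooled interval up to 0.348 CPM, and Ifi204 had 2, 4 and 8 counts.

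Around the kinases, 7 of 11 adaptors and partners of TBK1 and IKKe were at 10 CPM or more. Sqstm1, an autophagy receptor that TBK1 phosphorylates, had 263 ± 5.63 CPM and the helicase Ddx3x 106 ± 4.08 CPM (SD, n = 3). The scaffold proteins that hold TBK1 were counted unevenly. Azi2 had 43.5, 36.1 and 35.8 CPM, and its count was 1.82, 1.54 and 1.62 times that of Tbk1. Tank had 32.5, 27.6 and 27.1 CPM, while the third scaffold, Tbkbp1, had 0, 1 and 1 counts. Mavs, the adaptor of the RNA-sensing route to TBK1, had 14.9, 14.4 and 14.3 CPM. Its pooled ratio to Sting1 was 1.19, with an exact interval of 0.939 to 1.52 that includes 1.

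In the canonical IKK and NF-kB list, 8 of 10 genes were at 10 CPM or more and 10 of 10 at 1 CPM or more, led by the inhibitor Nfkbia with 444 ± 9.46 CPM and the subunit Rela with 113 ± 6.47 CPM (SD, n = 3). The canonical kinases Chuk and Ikbkb, relatives of Ikbke, had 30.7 ± 3.88 and 13.9 ± 0.77 CPM (SD, n = 3). Their pooled ratios to Ikbke were 32.3, with an exact interval of 17.3 to 68.0, and 14.7, with an interval of 7.77 to 31.3. Of the 4 IKK-family kinase genes, Ikbke was thus the lowest in each library.

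Among interferon regulatory factors, 5 of 8 were analysed beside Irf3. Irf1 had 30.7, 38.3 and 32.7 CPM and was above Irf3 in each library. The ratio was 1.42 ± 0.04 (SD, n = 3), with an exact interval of 1.21 to 1.67 for the pooled counts. Irf2 stood at 18.8 ± 2.08 CPM (SD, n = 3). Irf7, the factor related to Irf3 that interferon induces, had 21, 9 and 16 counts, or 6.25, 2.24 and 4.98 CPM, and Irf3 had 5.54 times its pooled counts, with an interval of 4.04 to 7.76.

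Regulators that act on cGAS or STING reached 10 CPM in 16 of 27 genes. Akt1, a kinase that phosphorylates cGAS among many targets, had 545 ± 38.5 CPM and the deacetylase Hdac3 112 ± 2.30 CPM (SD, n = 3). The ubiquitin ligases Rnf5 and Rnf26, which modify STING, had 30.5 ± 4.37 and 27.4 ± 3.75 CPM, and Trim56 had 7.17 ± 0.04 CPM (SD, n = 3). The small SD of Trim56 overstates its precision. It came from 24, 29 and 23 counts, and the exact interval of the pooled level was 5.65 to 8.98 CPM.

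Downstream, 6 of the 10 IRF3 target genes analysed were at 10 CPM or more, and 4 stood above Sting1. A level of 10 CPM was reached by 31.2% of all genes and by 47.4% of those with a RefSeq promoter window. Whether IRF3 bears on the levels of these genes was not tested. The highest were the chemokine Ccl5 with 50.3, 52.0 and 47.4 CPM, the antiviral gene Ifit2 with 25.3, 26.4 and 24.6 CPM, and the chemokine Cxcl10 with 22.9, 20.1 and 22.1 CPM. Of the 9 list genes tested, 0 varied between libraries by the chi-square test at an adjusted p below 0.05, against 2.8% of all genes, and 0 had an unadjusted p below 0.05, against 13.2%. Rsad2, an antiviral enzyme, was the lowest with 2, 6 and 4 counts. The list median was 10.6 CPM, against 23.1 CPM for the 5 members and 0.941 CPM for all genes in the table. For the 12664 genes with a RefSeq promoter window the median was 8.27 CPM.

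**Figure D5:**
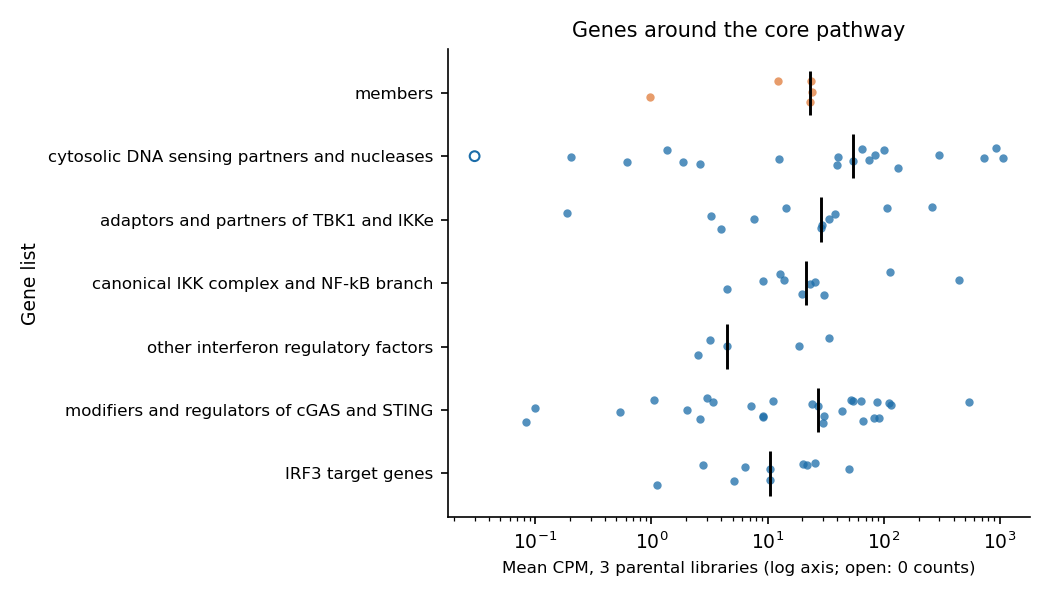
Mean CPM over the 3 parental libraries, on a log axis, of the 5 members (orange) and of the genes of 6 lists (blue), with a vertical bar at each median and an open circle for the gene with 0 counts. The medians of the lists run from 4.49 CPM for other interferon regulatory factors to 54.2 CPM for DNA sensing partners and nucleases.

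Of 72 list genes with enough counts, 4 varied between the parental libraries by the chi-square test, or 5.56% against 2.8% of all genes tested. An unadjusted p below 0.05 was found for 13 of the 72, against 1466 (13.2%) of all 11118 genes tested. The 4 were Banf1, Hmgb1, Akt1 and Map3k7. The shares were not matched for level, and the test detects smaller relative spreads in genes with more counts. Banf1, Hmgb1 and Akt1 averaged 545 CPM or more, against a median of 22.2 CPM over all genes tested. Map3k7, which encodes the kinase TAK1 upstream of the IKK complex, had 31.3, 29.6 and 15.9 CPM, lower in replicate 3 than in the others. Its adjusted p was 0.00732, and 0.959 without replicate 3. Hmgb1 was lowest in replicate 2, with 951, 863 and 962 CPM (adjusted p = 9.82e-05, and 0.915 without replicate 2). Akt1 was lowest in replicate 1, with 502, 575 and 559 CPM (adjusted p = 0.0161, 0.787 without replicate 1 and 0.221 without replicate 2). Banf1 had 1124, 1067 and 1031 CPM, highest in replicate 1 (adjusted p = 0.0154, 0.602 without replicate 1 and 0.385 without replicate 3).

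The genes nearest to each member in level were found by the root mean square difference of log2(CPM + 0.5) over the 3 libraries, among curated protein-coding genes. Adam17 (72, 109 and 75 counts) was nearest to Irf3 at 0.0174, Skil (82, 94 and 70 counts) to Tbk1 at 0.0232, and Unc45a (37, 45 and 47 counts) to Sting1 at 0.0278. Amn1 was nearest to Cgas, with 87, 95 and 70 counts at 0.0336. Tyk2 and Tspan33 had exactly the 4, 2 and 4 counts of Ikbke, and Adcy9 followed with 5, 2 and 4. Next came Mfap3 and Bcl2l13 for Irf3, Zbed3 and Cep57l1 for Tbk1, Sphk2 and Iqce for Sting1, and Ccdc71 and Katnbl1 for Cgas. With 3 libraries this likeness is one of level only.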

How the data were processed

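Libraries for 3'-end sequencing were barcoded by sample, per the labels' protocols. The authors deposited whole-number counts per gene, and the file headers name the build GRCm38, the annotation GENCODE M25, Picard 2.18.26, STAR 2.7.5b and Drop-seq tools 1.12. Collapsing by molecular identifier, strand use and the handling of reads that match several genes are not given in the sources used here.

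The deposited annotation names 3 columns WT with replicate numbers. Genotype and number together match each to 1 parental sample. A further 6 columns, in 2 sets of 3, could not be tied to the 3 STING-N153S samples and were not used, so the planned edgeR comparison was not run. The deposited annotation calls them biological replicates without saying whether they came from separate cultures, so the spread and the p-values may be technical.

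Counts were divided by library totals (3358908, 4020023 and 3210024) to give CPM. The floor of 3 counts is 0.746 to 0.935 CPM in 1 library and 0.283 CPM over all. The chi-square test took genes whose expected counts were 5 or more in every library, scaled by DESeq2 median ratios (version 1.42.0). It was tried only on simulated counts with Poisson noise, which cannot show how it behaves where libraries spread more widely. TMM and upper-quartile factors came from edgeR 4.0.16 in R 4.3.3, and the rest from Python 3.11.15 with scipy 1.17.1. The alternatives were other scalings, other minimum counts and leaving out each library. The annotation used for gene models was GENCODE M21 on GRCm38.

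The members and lists were chosen with earlier results of these data known. Named genes were the members, the 3 highest of each list, list genes with 0 counts, the 3 genes nearest to each member in level, and overlapping or neighbouring genes, given only where they bear on a count. One gene that this rule takes is not reported here. Other list genes, the gene pairs outside the members, and the promoter and motif searches were chosen after their values were seen.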

Additional observations from a re-analysis of the deposited data

How the results depend on the processing

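Each of the scalings tried (TMM, DESeq2 size factors, upper quartile, totals without the 20 highest genes) and each set without 1 library kept 4 of 5 members at 10 CPM or more. Each set without 1 library also kept 2 of 4 neighbouring pairs apart, a count that needs no scaling. Of 35 values for single members, 34 moved by less than 1 SD. The exception was Tbk1, at 25.5 CPM when the 20 highest genes were taken out of the totals, a scaling that raises every remaining gene. For the sets without 1 library this measure could not come out otherwise. Leaving out 1 of 3 values always moves a mean by less than 1 SD, so those values say nothing on stability. The order among Cgas, Irf3 and Tbk1 changed with the libraries: without replicate 1 Irf3 led, and without replicate 2 the mean ratio of Irf3 to Tbk1 was 0.979 in place of 1.04 (0.979 to 1.11 over the sets without 1 library). Leaving out 1 library gave 61 to 274 varying genes in place of 311, the lowest without parental replicate 3, and 0 of 4 members tested varied in any of these sets. With fewer libraries the test has less power. Of the 4 list genes that varied, 2 passed without replicate 1 (Hmgb1 and Map3k7), 2 without replicate 2 (Banf1 and Map3k7) and 2 without replicate 3 (Hmgb1 and Akt1). Those list counts were added after seeing the data. The number of list genes at 10 CPM or more was 51 to 52. The alternatives planned for STING-N153S against parental cells were not run for lack of mapped columns. No paired analysis was possible because the values come from 1 group. Depth limits Ikbke most, whose 10 counts in all set its level only within 0.453 to 1.74 CPM. Its mean was 1.22 CPM without replicate 2 and 1.08 CPM without the 20 highest genes in the totals, in place of 0.978 CPM.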
